A study of Mus musculus with 9 samples.

Results

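Kcnq3 and Kcnq5 encode pore subunits of the M-channel, and both were among the 38926 gene symbols counted in mouse lumbar dorsal root ganglia (DRG). They were taken by symbol, and both passed the filter on low counts that left 17348 genes for testing. Male C57BL/6 mice aged 8 to 10 weeks had received cisplatin, oxaliplatin or vehicle in the hind paw, with 40 µg of each platinum drug given in all. Ganglia L3 to L5 of the treated side were taken whole, and each library held the pooled RNA of 4 animals, so the spread between single animals was not measured. There were 3 libraries in each of the cisplatin, oxaliplatin and vehicle groups, sequenced as stranded total RNA with 75-base reads. The series set out to describe the expression signatures of the neuropathy that the 2 platinum drugs cause.

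The M-current is a slowly activating, non-inactivating potassium current that opens near the resting potential of a neuron and damps repetitive firing. Its channels are tetramers of KCNQ subunits, they need the membrane lipid PIP2 to open, and receptors coupled to Gq close them by driving phospholipase C to break PIP2 down. In sensory neurons the current holds back the firing of nociceptors and of larger afferents, and openers of the channel reduce that firing. KCNQ3 usually assembles with another KCNQ subunit and carries a binding site for ankyrin-G, the scaffold of the axon initial segment and the node of Ranvier. KCNQ5 can form channels alone or with KCNQ3.

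In GRCm38 with the GENCODE M21 annotation, Kcnq3 (ENSMUSG00000056258.9) lies on the minus strand at chr15:65986387-66286642 and Kcnq5 (ENSMUSG00000028033.16) on the minus strand at chr1:21398403-21961942. The merged exons cover 14708 bases of Kcnq3 and 7689 bases of Kcnq5. The annotated transcripts of the 2 genes shared 0 runs of 75 bases, the read length, and the longest shared run was 14 bases. Of the genes that overlap them, Gm26580 has 237 exon bases on the strand opposite Kcnq5 exons, and it had 0 to 3 reads in each library. Gm27153 overlaps Kcnq3 on the opposite strand without sharing an exon base. Whether the counting used strand is not stated, and without it reads from the bases shared with Gm26580 could not be told from those of Kcnq5. The processed pseudogene Gm7658 overlaps Kcnq5 on the same strand with 0 shared exon bases. It had 274 to 481 reads in the vehicle libraries and 658 to 807 in the drug libraries. These counts are not scaled for depth and do not measure a difference between the groups. All gene reads numbered 22819185 to 32022672 in the vehicle libraries and 31971613 to 38808509 in the drug libraries.

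Reads assigned to genes totalled 22819185 to 38808509 per library. Vehicle library 2 stood apart, with 47.7% of its uniquely placed reads outside genes. Vehicle libraries 1 and 3 had 26.8% and 26.2%, and the drug libraries 16.6 to 19.1%. The top 10 genes of vehicle library 2 held 32.9% of its gene reads, and its scaling factor was 0.7. The factor was 0.96 and 0.961 in vehicle libraries 1 and 3, and 1.037 to 1.104 in the drug libraries. The share outside genes and the scaling factor thus also split by group, and such library differences cannot be told apart from the drugs. Results are also given without vehicle library 2, which leaves that split in place. A count of 3 reads, used as a floor, corresponds to 0.0711 to 0.188 CPM, the read count relative to the scaled library size, far under both genes in every library.

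Kcnq3 fell under both platinum drugs to less than its lowest vehicle level, and Kcnq5 fell by a much smaller amount. In TMM-scaled CPM, Kcnq3 stood at 30.97, 35.39 and 41.87 in cisplatin libraries 1 to 3. In oxaliplatin libraries 1 to 3 it stood at 44.16, 29.66 and 33.42 CPM, against 97.21, 66.84 and 85.04 CPM in vehicle libraries 1 to 3. All 6 drug-treated libraries lay below all 3 vehicle libraries, of which library 2 was the lowest. The group means were 36.08 ± 5.48 CPM with cisplatin, 35.75 ± 7.52 CPM with oxaliplatin and 83.03 ± 15.3 CPM with vehicle (SD, n = 3 each).

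The log2 fold change of Kcnq3 was -1.21 for cisplatin against vehicle (SE 0.159, 95% interval -1.55 to -0.86, edgeR quasi-likelihood adjusted p = 0.000155), a ratio of 0.433. For oxaliplatin against vehicle it was -1.22 (SE 0.158, interval -1.57 to -0.88, edgeR adjusted p = 0.000118), a ratio of 0.429. Over all tested genes, 38.7% passed an adjusted p of 0.05 in the cisplatin comparison, 22.9% lower and 15.8% higher, and 41.6% passed in the oxaliplatin comparison, 24.1% lower and 17.5% higher. A pass on its own was thus common, and so was separation of the groups, since in 26.7% of genes for cisplatin and 27.4% for oxaliplatin every drug library lay below every vehicle library. The size of the difference was less common: 1.1% of tested genes had a lower fold change than Kcnq3 with cisplatin and 1.38% with oxaliplatin. Both comparisons used the same 3 vehicle libraries. In whole ganglia, fewer cells of a type and less RNA per cell cannot be told apart.

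Kcnq5 had 30.19, 31.07 and 35.71 CPM in cisplatin libraries 1 to 3. It had 35.51, 29.61 and 32.23 CPM in oxaliplatin libraries 1 to 3, against 44.57, 34.95 and 42.78 CPM in vehicle libraries 1 to 3. The groups overlapped, because vehicle library 2 lay below cisplatin library 3 and below oxaliplatin library 1. The means were 32.32 ± 2.96 CPM with cisplatin, 32.45 ± 2.95 CPM with oxaliplatin and 40.77 ± 5.12 CPM with vehicle (SD, n = 3 each). The log2 fold change was -0.34 for cisplatin (SE 0.098, interval -0.56 to -0.13, edgeR adjusted p = 0.0159) and -0.34 for oxaliplatin (SE 0.098, interval -0.55 to -0.13, edgeR adjusted p = 0.016). Of all tested genes, 18.1% had a lower fold change than Kcnq5 with cisplatin and 19.5% with oxaliplatin. With library totals in place of TMM the difference of Kcnq5 no longer passed, at -0.07 for cisplatin (adjusted p = 0.741) and -0.05 for oxaliplatin (adjusted p = 0.808). That scaling moves the median log2 fold change of all genes from near 0 to 0.29 and 0.30 for the 2 drugs, and relative to this median Kcnq5 stood at -0.36 and -0.35, and Kcnq3 at -1.23 and -1.25.

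**Figure D1:**
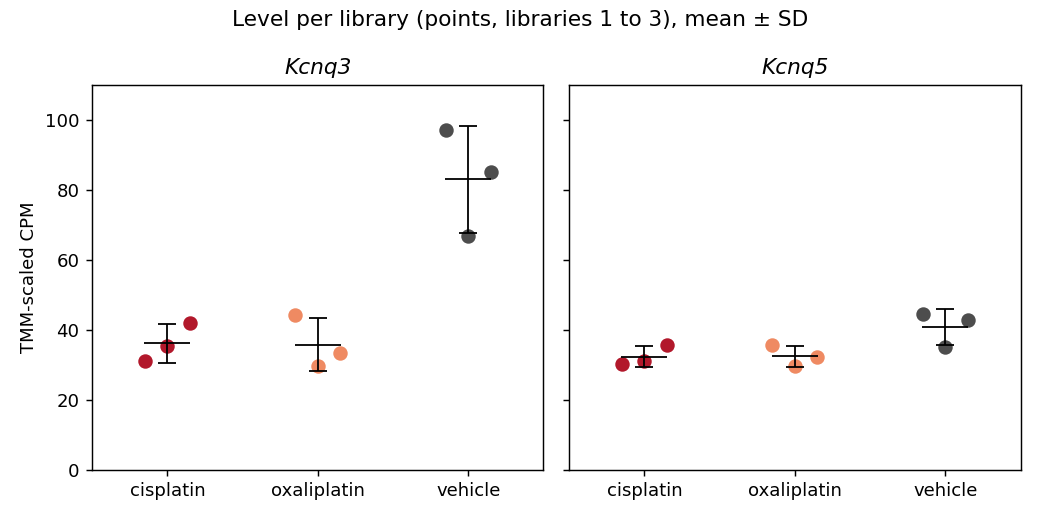
Level of Kcnq3 (left) and Kcnq5 (right) in TMM-scaled CPM on a linear axis; points are libraries 1 to 3 of each group and bars are the mean ± SD. Every cisplatin and oxaliplatin library lies below every vehicle library for Kcnq3, while for Kcnq5 vehicle library 2 (34.95 CPM) lies among the drug libraries.

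Per kilobase of exon, Kcnq3 lay below Kcnq5 with each drug and near it with vehicle. The length used is that of the merged exons of all annotated transcripts, and the levels of the pair relative to each other depend on that choice. With cisplatin, Kcnq3 averaged 2.45 ± 0.373 CPM per kb and Kcnq5 4.2 ± 0.385. With oxaliplatin, Kcnq3 averaged 2.43 ± 0.511 CPM per kb and Kcnq5 4.22 ± 0.384. With vehicle the genes lay within their spread, at 5.65 ± 1.04 CPM per kb for Kcnq3 and 5.3 ± 0.665 for Kcnq5 (SD, n = 3 each).

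The ratio of the 2 genes within a library needs no scaling between libraries, and it separated the drug groups from vehicle. A trend of fold change with gene length, described below, does not cancel in it. The merged exons of Kcnq3 are the longer, at 14708 bases against 7689 for Kcnq5. Per kilobase, Kcnq3 reads were 0.536, 0.595 and 0.613 times Kcnq5 reads in cisplatin libraries 1 to 3. The ratio was 0.65, 0.524 and 0.542 in oxaliplatin libraries 1 to 3, against 1.14, 1 and 1.04 in vehicle libraries 1 to 3. The lowest vehicle ratio was in library 2, and it exceeded all 6 drug ratios. On the log2 scale and before division by length, the mean ratio was 0.15 ± 0.10 with cisplatin, 0.12 ± 0.17 with oxaliplatin and 1.02 ± 0.10 with vehicle (SD, n = 3 each). The 6 drug libraries together differed from the 3 vehicle libraries by -0.88 (two-sided exact permutation p = 0.0238, and 0.0952 after Benjamini-Hochberg adjustment over 4 comparisons). This p doubles the smaller tail over 84 arrangements and is the smallest that this form of the test can give. For each drug alone, at -0.87 for cisplatin and -0.89 for oxaliplatin, the exact p was 0.1, the smallest that 3 against 3 can give (adjusted p = 0.133).

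**Figure D2:**
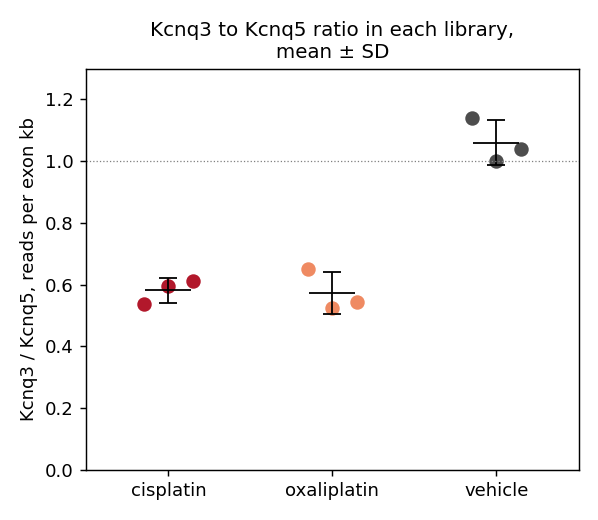
Reads of Kcnq3 per exon kilobase divided by those of Kcnq5 in each library (linear axis, points are libraries 1 to 3, bars are the mean ± SD, dotted line at equal levels). The cisplatin and oxaliplatin libraries lie between 0.524 and 0.65 and the vehicle libraries between 1 and 1.14.

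The cisplatin and oxaliplatin groups could not be separated on either gene. The log2 fold change of cisplatin over oxaliplatin was 0.01 for Kcnq3 (SE 0.159, interval -0.33 to 0.36, edgeR adjusted p = 0.994) and -0.01 for Kcnq5 (SE 0.097, interval -0.22 to 0.21, edgeR adjusted p = 0.998). The intervals leave room for a difference of this width in either direction. The same contrast passed for 0.0115% of all tested genes, 2 genes in number.

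Library composition moved with the drugs, and its values stand beside these results. The 20 pan-neuronal markers were all detected in every group, and their summed level was 18450 to 20930 CPM with cisplatin, 19310 to 20270 with oxaliplatin and 20650 to 21690 with vehicle. Of these 20 markers, 10 passed as lower and 1 as higher with cisplatin, and 10 as lower and 2 as higher with oxaliplatin. Their medians were -0.23 for both drugs, against 0.00 over all genes. Over all genes, 22.9% were lower and 15.8% higher with cisplatin, and 24.1% and 17.5% with oxaliplatin. These shares belong beside each marker count given here. The 13 markers of large-diameter neurons summed to 2756 to 3302 CPM with cisplatin, 2931 to 3345 with oxaliplatin and 3440 to 3865 with vehicle, with 9 lower under cisplatin and 8 under oxaliplatin. The 12 nociceptor markers summed to 5202 to 5549 CPM with cisplatin, 5406 to 5940 with oxaliplatin and 6201 to 6656 with vehicle, with 6 lower in each comparison and 2 higher under cisplatin and 1 under oxaliplatin. The 12 satellite glia markers had medians of -0.03 and -0.05, with 2 higher and 3 lower under cisplatin and 1 higher and 4 lower under oxaliplatin, and summed to 4742 to 5003 CPM with cisplatin, 4898 to 5105 with oxaliplatin and 4411 to 4766 with vehicle. The 12 markers of myelinating Schwann cells summed higher with the drugs. They reached 5657 to 7004 CPM under cisplatin and 5424 to 5700 under oxaliplatin, against 4285 to 5142 under vehicle. Among these 12, 10 passed as higher with cisplatin and 5 with oxaliplatin, and 0 passed as lower by edgeR. The 11 macrophage markers summed to 148.9 to 179.3 CPM with cisplatin, 156.9 to 168.9 with oxaliplatin and 100.7 to 135.4 with vehicle. Their higher calls numbered 10 with cisplatin and 8 with oxaliplatin, and their lower calls 0 by edgeR. Blood cell markers differed most: the median log2 fold change of 10 neutrophil markers was 1.66 with cisplatin and 1.21 with oxaliplatin, with 10 and 9 of them higher, and that of 7 erythrocyte markers was 1.90 and 1.83, with 7 and 6 higher. Of 10 endothelial markers 7 rose with cisplatin and 9 with oxaliplatin, and of 10 fibroblast markers 9 and 6 rose. The part of these cells in the values of Kcnq3 and Kcnq5 was not tested.

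Counted per 1000 pan-neuronal reads, Kcnq3 lay lower in every drug library than in every vehicle library. It had 1.68, 1.83 and 2 reads per 1000 in cisplatin libraries 1 to 3, and 2.18, 1.54 and 1.72 in oxaliplatin libraries 1 to 3, against 4.71, 3.23 and 3.92 in vehicle libraries 1 to 3. Kcnq5 had 1.64, 1.61 and 1.71 in cisplatin libraries and 1.75, 1.53 and 1.66 in oxaliplatin libraries, against 2.16, 1.69 and 1.97 in vehicle libraries, with vehicle library 2 below cisplatin library 3 and oxaliplatin library 1. With libraries scaled to the pan-neuronal reads, the log2 fold change of Kcnq3 was -1.11 for cisplatin and -1.13 for oxaliplatin, and that of Kcnq5 was -0.24 (edgeR adjusted p = 0.0439) and -0.24 (adjusted p = 0.0403). This scaling moved the median of all genes to 0.11 for cisplatin and 0.10 for oxaliplatin. It sets only the summed reads of the pan-neuronal markers equal. The median of these markers was then -0.13 for each drug, and that of the large-diameter neuron markers -0.36 for cisplatin and -0.33 for oxaliplatin. The neuronal content of the libraries was thus not made equal marker by marker.

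Gene length moved with the drugs as well. Across 16380 tested genes with a known exon length, the Spearman correlation of length with log2 fold change was -0.41 for each drug against vehicle and 0.01 for cisplatin against oxaliplatin; genes are not independent replicates and no p is given. Kcnq3 is longer than 97.5% of these genes and Kcnq5 than 82.6%. After a smooth trend on GC content and exon length was removed from each library, the log2 fold change of Kcnq3 was -0.80 for cisplatin and -0.84 for oxaliplatin and passed in both. Kcnq5 then stood at -0.21 for cisplatin (edgeR adjusted p = 0.0504) and -0.22 for oxaliplatin (adjusted p = 0.0462), on either side of the threshold. The fold changes of Kcnq3 and Kcnq5 thus lay closer together with the trend removed. Their ratio within libraries was not corrected for it. Without vehicle library 2, Kcnq3 stood at -1.32 and -1.33 for the 2 drugs and Kcnq5 at -0.42 (adjusted p = 0.00258) and -0.41 (adjusted p = 0.00261).

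**Figure D3:**
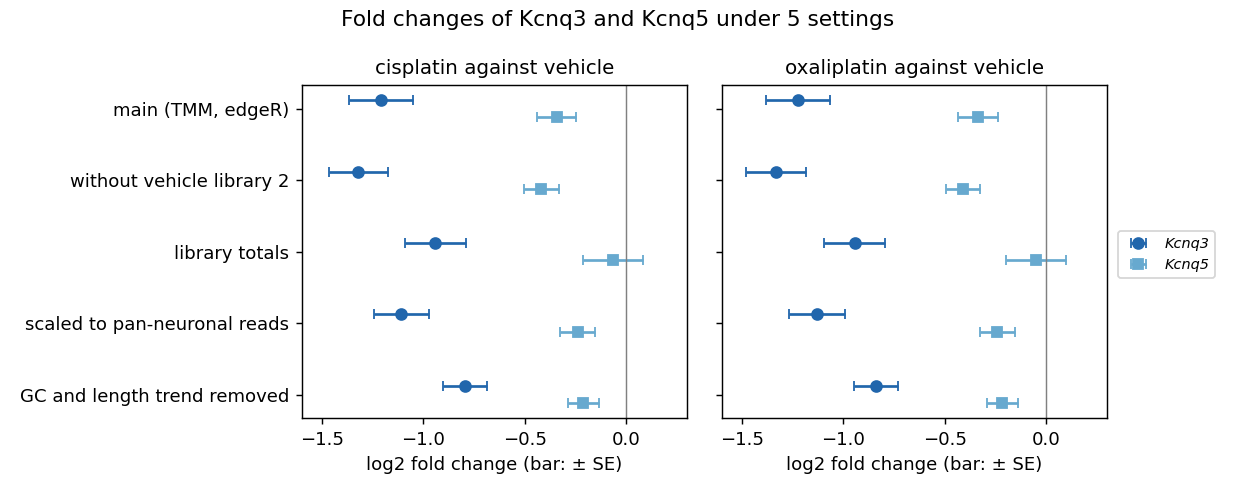
Log2 fold change of Kcnq3 (circles) and Kcnq5 (squares) for cisplatin against vehicle (left) and oxaliplatin against vehicle (right) under 5 settings, with bars of ± 1 SE. Kcnq3 stays between -1.33 and -0.80 in all 5, and Kcnq5 between -0.42 and -0.05, closest to 0 with library totals.

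The genes that act on the channel were described from lists by role, 61 of them tested. Of these 61, 21 passed as lower with cisplatin (34.4%, against 22.9% of all genes) and 8 as higher (13.1%, against 15.8%). With oxaliplatin 22 passed as lower (36.1%, against 24.1%) and 6 as higher (9.84%, against 17.5%). The median log2 fold changes were -0.10 and -0.09, against 0.00 over all genes. With library totals the balance turned, to 6 lower and 12 higher for cisplatin and 5 lower and 16 higher for oxaliplatin. Over all 17348 genes that scaling gave 917 lower and 5987 higher for cisplatin, and 996 and 6408 for oxaliplatin. With pan-neuronal scaling the list had 14 lower and 12 higher, and 15 lower and 13 higher. All genes then had 2625 lower and 4176 higher, and 2915 and 4236. The counts of this list and of each list below therefore depend on the scaling, which moves all genes. Without vehicle library 2 the 61 genes had 23 lower and 7 higher for cisplatin, and 24 lower and 7 higher for oxaliplatin. All genes then had 3908 lower and 3401 higher for cisplatin, and 4078 and 3619 for oxaliplatin. Between cisplatin and oxaliplatin 0 of the 61 passed by edgeR, DESeq2 or limma-voom, and 3 had an unadjusted edgeR p under 0.05.

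Of 16 genes for proteins that anchor, traffic or turn over the channel, 6 fell and 2 rose with each drug. That is 37.5% lower, against 22.9% and 24.1% of all genes, and 12.5% higher, against 15.8% and 17.5%. With library totals 3 were lower and 2 higher for cisplatin, and 2 of each for oxaliplatin. Ank3, which encodes ankyrin-G, had 282.9, 283.3 and 322.3 CPM in cisplatin libraries 1 to 3 and 403.1, 278.8 and 325 CPM in oxaliplatin libraries 1 to 3, against 790.9, 591.6 and 788.4 CPM in vehicle libraries 1 to 3. As for Kcnq3, every drug library lay below every vehicle library. Its log2 fold change was -1.29 with cisplatin (SE 0.138, edgeR adjusted p = 5.22e-05) and -1.11 with oxaliplatin (SE 0.137, adjusted p = 8.81e-05), and -0.72 and -0.59 after removal of the GC and length trend. Slc5a3, a myo-inositol transporter that associates with KCNQ channels, averaged 97.87 ± 2.23 CPM with cisplatin and 92.79 ± 8.23 CPM with oxaliplatin, against 155.7 ± 14 CPM with vehicle (SD, n = 3 each), and passed as lower with both drugs. Calm3, which encodes calmodulin, a protein bound to KCNQ subunits, rose with cisplatin (log2 fold change 0.29) and oxaliplatin (0.33), a call lost for cisplatin on removal of the GC and length trend (0.16). Calm2 (0.09 and 0.01) did not pass, but for cisplatin it did with pan-neuronal scaling (0.20) and by DESeq2 (0.11). Nedd4, a ubiquitin ligase, passed with cisplatin at -0.26 (edgeR adjusted p = 0.0293) but stood at 0.03 with library totals and at 0.01 with the trend removed (call lost in 10 of 22 alternative settings), and with oxaliplatin it stood at -0.21 (adjusted p = 0.0581), passing in 6 of 22 alternatives, DESeq2 (0.0215) and limma-voom (0.0296) among them.

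Of 7 genes for enzymes that make or break down the PIP2 that keeps M-channels open, 3 fell with cisplatin and 4 with oxaliplatin. By edgeR, DESeq2 or limma-voom 0 rose, with 1 higher at an unadjusted p under 0.05 for oxaliplatin and 0 for cisplatin. The lower calls were 42.9% and 57.1% of the list, against 22.9% and 24.1% of all genes. With library totals the list had 2 lower and 0 higher for cisplatin and 1 of each for oxaliplatin, and for oxaliplatin 1 was also higher with pan-neuronal scaling and without vehicle library 2. Synj1, a phosphatase that removes PIP2, had 101.6, 111.9 and 136.2 CPM in cisplatin libraries 1 to 3 and 139.5, 100.5 and 117.8 CPM in oxaliplatin libraries 1 to 3, against 307.4, 271.1 and 252.1 CPM in vehicle libraries 1 to 3. The drug libraries all lay below the vehicle libraries, and the log2 fold change was -1.25 with cisplatin and -1.22 with oxaliplatin (SE 0.126 for cisplatin, edgeR adjusted p = 3.96e-05 and 2.99e-05). On the making side, the kinase gene Pi4ka stood at -0.71 with cisplatin and -0.56 with oxaliplatin, the second call lost with library totals (-0.26). Pip5k1c, which encodes the kinase that completes PIP2, passed at -0.23 with each drug but stood at 0.05 and 0.06 with library totals, and it lost the call in 6 of 22 alternatives for cisplatin and 7 for oxaliplatin, those without vehicle library 1 or 3 among them. Pi4kb, with 55.69 ± 1.84 CPM under cisplatin, 59.79 ± 0.508 under oxaliplatin and 55.23 ± 1.51 under vehicle (SD, n = 3 each), did not pass in either comparison, although for oxaliplatin it passed as higher in 8 of 22 alternatives, with library totals (0.42), with pan-neuronal scaling (0.21) and without vehicle library 1 (0.16) or 2 (0.14) among them.

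Of 10 genes for Gq proteins and their effectors, 7 fell and 1 rose with cisplatin, and 6 fell with oxaliplatin. With oxaliplatin 0 rose by edgeR, DESeq2 or limma-voom, also at an unadjusted p under 0.05. The lower calls were 70% and 60% of the list, against 22.9% and 24.1% of all genes. With cisplatin the higher calls were 10%, against 15.8%. This balance turned with library totals, to 1 lower and 2 higher for each drug, and with pan-neuronal scaling it was 5 lower and 2 higher for cisplatin and 5 lower and 1 higher for oxaliplatin. Gnaq, the Gq alpha subunit itself, had 287.2, 305.6 and 317.8 CPM in cisplatin libraries and 331.4, 281.5 and 310.4 CPM in oxaliplatin libraries, against 435.3, 365.1 and 442.7 CPM in vehicle libraries. All drug libraries lay below the vehicle libraries, with log2 fold changes of -0.45 and -0.43, both calls lost with library totals (-0.17 and -0.14). Prkce, a protein kinase C active in nociceptors, stood at -0.74 with cisplatin (SE 0.08, edgeR adjusted p = 5.52e-05) and -0.67 with oxaliplatin (SE 0.08, adjusted p = 6.74e-05), and passed with library totals too. Prkca (-0.53 and -0.44) and the phospholipase C gene Plcb4 (-0.54 and -0.45) passed with both drugs, and neither did with library totals. Plcb3, the phospholipase C of many nociceptors, passed with cisplatin alone (-0.20, and 0.09 with library totals), a call lost in 16 of 22 alternatives; its value for oxaliplatin was -0.12, and no difference between the drugs was called.

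Of the 17 tested genes for Gq-coupled receptors, 4 rose and 2 fell with cisplatin, and 3 rose and 2 fell with oxaliplatin. The medians were 0.05 and 0.14. The lower calls were 11.8% with each drug, against 22.9% and 24.1% of all genes. The higher calls were 23.5% with cisplatin, against 15.8% of all genes. With oxaliplatin they were 17.6%, against 17.5%, as frequent as over all genes. With library totals and with pan-neuronal scaling, which raise the median of all genes, the edgeR calls were all higher. They numbered 5 for cisplatin and 8 for oxaliplatin with library totals, and 5 and 7 with pan-neuronal scaling. With the GC and length trend removed, 2 were higher and 2 lower for cisplatin, and 4 higher and 2 lower for oxaliplatin. All genes then had 2462 higher and 3394 lower for cisplatin, and 2504 and 3422 for oxaliplatin. The muscarinic receptor gene Chrm5 stood near the floor, at 0.723 ± 0.138 CPM with cisplatin and 0.949 ± 0.183 CPM with oxaliplatin, against 0.354 ± 0.121 CPM with vehicle (SD, n = 3 each). It passed as higher with both drugs, and for cisplatin lost the call without vehicle library 2 (edgeR adjusted p = 0.0618), vehicle library 3 (0.101), cisplatin library 1 (0.0859) or cisplatin library 2 (0.0638). That call was also lost with the GC and length trend removed (edgeR adjusted p = 0.0858), and in 6 of 22 alternatives in all. The histamine receptor gene Hrh1 rose by 0.31 and 0.37 on the log2 scale, and the prostaglandin receptor gene Ptger1 by 0.29 with cisplatin, with 0.16 for oxaliplatin, which passed in 7 of 22 alternatives and not in the comparison as reported. The cisplatin call of Hrh1 was lost without vehicle library 1 (edgeR adjusted p = 0.0624), cisplatin library 1 (0.0695) or cisplatin library 2 (0.0648). It was also lost with the GC and length trend removed (edgeR adjusted p = 0.0594) and by DESeq2 (adjusted p = 0.0652), and in 6 of 22 alternatives in all. The thrombin receptor gene F2r passed at -0.25 with cisplatin and the purinergic receptor gene P2ry1 at -0.20 and -0.25 with the 2 drugs, but with library totals these values were 0.03 for F2r, and 0.09 and 0.04 for P2ry1, and the cisplatin calls were lost in 15 of 22 alternatives for F2r and 16 for P2ry1. For oxaliplatin F2r stood at -0.22 and passed without vehicle library 2 (-0.29, edgeR adjusted p = 0.00941) and with the trend removed (-0.28). Mrgprd, a receptor of non-peptidergic nociceptors, did not pass (0.03 and 0.10), but for oxaliplatin it did with library totals (0.39) and pan-neuronal scaling (0.20).

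A list of 11 genes for regulators known or proposed to act on KCNQ transcription held the REST complex, Sp1 and the NFAT factors. Of these 11 genes, 3 fell and 1 rose with cisplatin (27.3% lower, against 22.9% of all genes), and 4 fell and 1 rose with oxaliplatin (36.4%, against 24.1%). The 1 higher call was 9.09% of the list, against 15.8% and 17.5% of all genes. With library totals 0 were lower and 3 higher by edgeR for cisplatin, and 1 lower and 3 higher for oxaliplatin. Nfatc4 rose in each comparison, to 3.24 ± 0.0864 CPM with cisplatin and 3.86 ± 0.217 CPM with oxaliplatin, against 2.09 ± 0.305 CPM with vehicle (SD, n = 3 each; log2 fold changes 0.66 and 0.91, edgeR adjusted p = 0.00195 and 0.000189). Nfatc3, its relative, moved the other way, at 28.57 ± 1.86 and 26.66 ± 2.93 CPM with cisplatin and oxaliplatin, against 41.44 ± 4.26 CPM with vehicle (-0.54 and -0.64), a call lost for cisplatin with library totals (-0.26). Rcor1, a corepressor that binds REST, passed at -0.43 and -0.38, and neither call held with library totals. Hdac2, Ehmt2 and Sp1 did not pass with either drug, with values between -0.14 and 0.04; Ehmt2 passed for oxaliplatin with library totals alone (0.35, adjusted p = 0.0499).

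**Figure D4:**
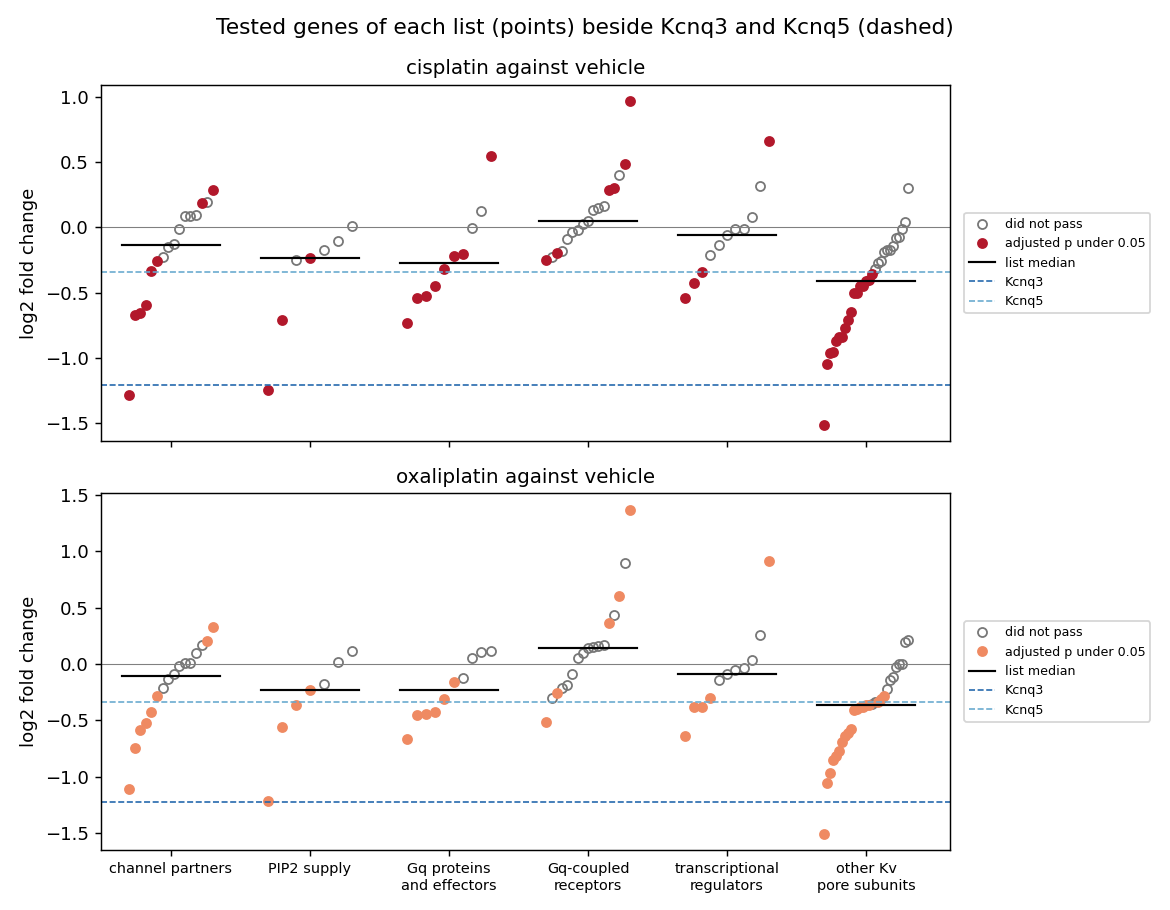
Log2 fold change of each tested gene (points, filled where the edgeR adjusted p was under 0.05) in 6 lists for cisplatin against vehicle (top) and oxaliplatin against vehicle (bottom), with list medians as black bars and Kcnq3 and Kcnq5 as dashed lines. The other Kv pore subunits have the lowest medians, at -0.41 and -0.36, and the line of Kcnq3 lies below both. With library totals the medians of the first 5 lists lie above 0 for both drugs, as does the median of all genes (0.29 and 0.30).

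Among the genes for 29 other voltage-gated potassium channel (Kv) pore subunits, 17 fell with cisplatin (58.6%, against 22.9% of all genes) and 19 fell with oxaliplatin (65.5%, against 24.1%). By edgeR 0 rose. With cisplatin 1 was higher at an unadjusted p under 0.05 and by DESeq2, and 0 by limma-voom; with oxaliplatin all 3 counts were 0. With library totals 10 fell and 1 rose with cisplatin, and 7 fell and 2 rose with oxaliplatin. Without vehicle library 2, 20 fell in each comparison, beside 3908 of all genes for cisplatin and 4078 for oxaliplatin. Kcnh5, an ether-a-go-go channel, had 10.92, 11.79 and 14.38 CPM in cisplatin libraries and 14.2, 11.3 and 11.45 CPM in oxaliplatin libraries, against 27.97, 23.74 and 24.93 CPM in vehicle libraries, with no overlap. Its relative Kcnh7 stood at -0.96 and -0.97. Kcnd1 (-0.84 and -0.82) and Kcnd3 (-0.51 and -0.40) encode channels of the transient A-type current, and Kcnd3 did not pass with library totals nor, for oxaliplatin, without vehicle library 1 (edgeR adjusted p = 0.0778), vehicle library 3 (0.0528) or oxaliplatin library 2 (0.0562). Kcnb2 (-0.85 and -0.78) encodes a delayed rectifier, and Kcna1 (-0.71 and -0.69) a channel that sits beside the nodes of myelinated axons; the oxaliplatin value of Kcna1 did not pass with library totals (adjusted p = 0.0525). Kcnq5 lay inside the list, with 17 of the 29 below it for each drug.

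Transcripts of the remaining KCNQ subunit shown here and of the KCNE accessory subunits were scarce. Kcnq1, best known from heart and inner ear, averaged 0.79 ± 0.122 CPM with cisplatin, 0.85 ± 0.191 CPM with oxaliplatin and 0.954 ± 0.149 CPM with vehicle (SD, n = 3 each) and did not pass. Kcne3 passed with cisplatin (0.72, edgeR adjusted p = 0.0477, lost in 16 of 22 alternative settings) and not with oxaliplatin (0.40). Kcne4 (0.28 and 0.40) and Kcne1l (0.25 and 0.34) did not pass, but both did for oxaliplatin with library totals, and Kcne4 also without oxaliplatin library 1 (0.63, edgeR adjusted p = 0.00485) and, for cisplatin, with library totals (0.57). Kcne1 and Kcne2 were too low to test.

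Across the 9 libraries, the log2 CPM of Kcnq3 and Kcnq5 correlated at r = 0.942. Of 13383 genes compared, those most like Kcnq3 were Six4 (r = 0.998), Cep350 (0.997) and Map9 (0.997), and those most like Kcnq5 were Fbxw11 (0.993), Pcgf3 (0.99) and Noc3l (0.989). All points share the same libraries and the same split between drug and vehicle, and a high r was common: 18.2% of genes exceeded 0.9 with Kcnq3 and 8.64% with Kcnq5. The size of the change was not shared, since Six4, Cep350 and Map9 stood at -0.50, -0.75 and -0.42 with cisplatin and -0.49, -0.72 and -0.40 with oxaliplatin, all smaller than for Kcnq3.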

How the data were processed

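Total RNA libraries were prepared with a TruSeq stranded kit from RNeasy-extracted RNA, per the labels. The submitters' processing notes name STAR, SAMtools and HTSeq and the build mm10 (GRCm38); no version, annotation or strand setting is stated there. The authors deposited raw read counts per gene symbol for each library, not normalized. The 5 classes of reads assigned to no gene, 42.8 to 74.5% of recorded reads, were left out of library sizes and tests.

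Counts were analysed in R 4.3.3 with edgeR 4.0.16: filterByExpr, TMM scaling, a quasi-likelihood fit over all 9 libraries, and Benjamini-Hochberg adjustment over 17348 genes, with calls at 0.05. Alternatives used limma 3.58.1, DESeq2 1.42.0 and, for the GC and length trend, mgcv 1.9.3. The procedure was tested on simulated counts. GENCODE M21 matched 91.6% of symbols and gave positions and lengths.

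The members and lists were chosen with earlier results of these data known. Named from each list were the 4 members with the highest mean CPM and, in each comparison with vehicle, the 2 with the smallest p; for like patterns, the 3 genes with the highest r. Some genes covered by this rule are not reported here.

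Floors cover counting error only. Replicates are pools of 4 animals, and p-values measure the spread between these pools.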

Additional observations from a re-analysis of the deposited data

How the results depend on the processing

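Kcnq3 passed as lower in all 22 alternatives run for each drug, between -1.32 and -0.78 on the log2 scale for cisplatin (highest adjusted p = 0.00174) and between -1.38 and -0.84 for oxaliplatin (highest 0.00146). Kcnq5 was less stable. With library totals it stood at -0.065 for cisplatin and -0.048 for oxaliplatin, and with the GC and length trend removed at -0.212 for cisplatin (adjusted p = 0.0504). It passed for oxaliplatin in that setting (-0.216, 0.0462) and for both drugs with the trend removed and the replicate block (-0.204, 0.0377 and -0.209, 0.0323). Leaving out 1 library at a time gave Kcnq5 values of -0.418 to -0.253 for cisplatin, not passing without vehicle library 1 (-0.253, adjusted p = 0.104), vehicle library 3 (-0.31, 0.058), cisplatin library 1 (-0.296, 0.0635) or cisplatin library 2 (-0.312, 0.0629). For oxaliplatin it gave -0.41 to -0.245, not passing without vehicle library 1 (-0.245, 0.108), vehicle library 3 (-0.304, 0.0577) or oxaliplatin library 2 (-0.275, 0.0677). The fall is larger without vehicle library 2 and smaller without the other vehicle libraries; the cause was not tested. Library totals reduced the lower channel-acting genes to 6 for cisplatin and 5 for oxaliplatin and gave 12 and 16 higher ones, and the pan-neuronal scaling gave 12 and 13. Leaving out 1 library gave 4 to 8 higher ones for cisplatin, with 5 without cisplatin library 1 and 4 without cisplatin library 2. Over all genes, 2744 higher and 3971 lower calls for cisplatin became 5987 and 917 with library totals and 4176 and 2625 with pan-neuronal scaling; for oxaliplatin, 3043 and 4178 became 6408 and 996, and 4236 and 2915. Between cisplatin and oxaliplatin the 2 calls became 68 with library totals, 16 with no filter, 14 with DESeq2, 1 with a minimum of 1 CPM, 1 with limma-voom, and 0 with pan-neuronal scaling, with the 2 groups alone, with the replicate block and with the block and trend removal together, and 0 to 2 with 1 library left out.

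The labels give no pairing of the libraries, and none was seen by replicate number. Deviations of the 9 same-numbered pairs correlated at -0.141 to 0.105, with 2 over 0.1, and 4 of 9 libraries correlated best with their own number. With 3 libraries in each group such a check can miss a pairing and cannot exclude one. With the replicate block Kcnq3 stood at -1.18 and -1.22 and Kcnq5 at -0.33 and -0.33 for the 2 drugs, and calls over all genes numbered 6643 and 7140, against 6715 and 7221 without it. The difference in the Kcnq3 to Kcnq5 ratio between either drug and vehicle stayed at -0.88 with the block (exact p = 0.0741). It ran from -0.921 to -0.826 with 1 library left out, with an exact p of 0.0714, the smallest possible there, without each vehicle library. These exact p-values also double the smaller tail. The GC and length trend was not removed in any of these ratios.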
